A study of Mus musculus with 16 samples.

Results

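The genes described here are 3 that dividing cells transcribe, *Birc5*, *Top2a* and *2810417H13Rik* (now named *Pclaf*), taken by name as 3 of the 734 genes of the deposited table. Their mRNA was counted with a NanoString nCounter panel of myeloid genes, in which each bound molecule is read by its colour-coded probe, in CD11b+ cells selected from the spleens of 16 wild-type B6 (C57BL/6) mice. The study asked how erythropoietin (EPO) changes splenic myeloid cells of mice that meet foreign cells under CTLA4-Ig. Each of the 4 groups had 4 mice.

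Naive mice were left untreated. A group received 20000000 spleen cells of BALB/c mice, a strain with other transplantation antigens, and nothing else. The CTLA4-Ig group received the same cells and, on day 2, 150 μg of CTLA4-Ig (abatacept), a fusion protein that keeps CD28 on T cells from binding its ligands. The CTLA4-Ig/EPO group received the cells, the same CTLA4-Ig and daily EPO (epoetin alfa, 5000 U/kg), the hormone of red cell formation. Spleens were taken on day 7, and the untreated mice are the only group without foreign cells. The labels describe the BALB/c cells as T cell depleted and given into the peritoneum, whereas the study's results name a vein, and the labels give CD11b+ selection where the results add the absence of CD11c. A letter code in the label text is swapped between naive mice and mice given BALB/c cells alone relative to the sample titles, and groups were taken from the titles. The total number of molecules recovered per mouse lay between 562760 and 912328.

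Each of the 3 proteins works at a set stage of the division cycle. BIRC5 (survivin), a member of the inhibitor of apoptosis family, is a subunit of the chromosomal passenger complex that corrects the attachment of chromosomes to the spindle, TOP2A untangles DNA strands before chromosomes separate, and PCLAF binds the sliding clamp PCNA at replication forks. Most mature granulocytes, monocytes and tissue macrophages have left the cycle, whereas their progenitors and red cell precursors divide, and the mouse spleen keeps such progenitors in adult life.

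Genes of the late cycle are commonly transcribed through CCAAT boxes and the cell cycle homology region (CHR, TTTGAA), and genes of DNA replication through E2F words. As description, the 250 bases before the start of each gene are printed here from RefSeq's GRCm38.p6 table, with the matches in capitals. All 3 genes were found there. Whether these words have a part in the changes between groups was not tested. The motifs searched on both strands were CCAAT, which reads ATTGG on the other strand, TTTGAA, which reads TTCAAA there, and the E2F words TTTCCCGC, TTTGGCGC, TTTCGCGC and TTTGCCGC, and 0 bases lay in more than 1 match. The windows are chr11:117848987-117849236 on the plus strand for *Birc5*, chr11:99024190-99024439 on the minus strand for *Top2a* and chr9:65890073-65890322 on the plus strand for *2810417H13Rik*.
Birc5: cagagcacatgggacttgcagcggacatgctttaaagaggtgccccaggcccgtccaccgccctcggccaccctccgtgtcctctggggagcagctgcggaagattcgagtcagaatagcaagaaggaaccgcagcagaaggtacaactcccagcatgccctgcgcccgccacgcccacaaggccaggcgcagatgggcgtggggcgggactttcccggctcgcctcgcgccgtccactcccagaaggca
Top2a: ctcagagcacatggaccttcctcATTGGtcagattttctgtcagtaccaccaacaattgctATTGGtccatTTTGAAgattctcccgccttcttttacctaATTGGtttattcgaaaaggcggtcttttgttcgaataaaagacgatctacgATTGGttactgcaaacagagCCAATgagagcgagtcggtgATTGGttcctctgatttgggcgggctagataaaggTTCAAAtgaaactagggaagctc
2810417H13Rik: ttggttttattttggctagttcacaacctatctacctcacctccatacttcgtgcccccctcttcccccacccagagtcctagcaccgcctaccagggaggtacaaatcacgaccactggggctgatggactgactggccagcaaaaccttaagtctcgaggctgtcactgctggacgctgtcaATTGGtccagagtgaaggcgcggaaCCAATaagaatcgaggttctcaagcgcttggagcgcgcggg

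The *Top2a* window held 6 CCAAT boxes and 2 CHR elements, 1 of them 23 to 18 bases before the start. The *2810417H13Rik* window held 2 CCAAT boxes, 66 to 62 and 41 to 37 bases before the start, and the *Birc5* window held none of the words. Of 32851 promoters in the table, 33.8% held a CCAAT box in this window, 1.86% held an E2F word and 5252 promoters held a CHR element. A match is a run of letters, and the absence of a match says only that these letters are not in this window. Of the 6 other genes of replication and mitosis named later in the text, *Mcm5*, *Ccnb2*, *Cdc20*, *Ttk* and *Ndc80* were found in the promoter table. CCAAT boxes were in the windows of *Mcm5*, *Ccnb2*, *Cdc20* and *Ttk*, a CHR element was in those of *Ccnb2* and *Cdc20*, and an E2F word was in that of *Mcm5*.

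*Birc5*, the gene of survivin, had normalized log2 values of 7.23, 6.99, 7.28 and 7.12 in the 4 CTLA4-Ig/EPO mice and of 5.65, 5.36, 5.26 and 4.81 in the 4 CTLA4-Ig mice. The values were 5.77, 5.38, 5.24 and 5.46 after BALB/c cells alone and 7.46, 6.34, 5.69 and 6.58 in naive mice. The lowest mouse with EPO stood above the highest of the 8 mice given BALB/c cells without it. Naive mice spread over the gap, from 1 mouse above every mouse with EPO to 1 below the highest mouse given BALB/c cells alone. The means were 7.16 ± 0.13 with CTLA4-Ig/EPO, 5.27 ± 0.35 with CTLA4-Ig, 5.46 ± 0.22 after BALB/c cells alone and 6.52 ± 0.73 in naive mice (SD, n = 4 each).

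*Top2a*, the gene of DNA topoisomerase II alpha, had normalized log2 values of 9.33, 9.38, 9.21 and 9.21 in the mice with EPO and of 8.39, 8.29, 8.08 and 7.68 with CTLA4-Ig. The values were 8.77, 8.57, 8.43 and 8.15 after BALB/c cells alone and 9.88, 9.03, 8.75 and 9.04 in naive mice. The mice with EPO again lay above every mouse given BALB/c cells without it, and they spread least (SD 0.09, against 0.31 with CTLA4-Ig, 0.26 after BALB/c cells alone and 0.49 in naive mice). The range of the naive mice enclosed that of the mice with EPO, and the lowest naive mouse was just below the highest mouse given BALB/c cells alone.

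*2810417H13Rik*, the gene of the PCNA partner PCLAF, had normalized log2 values of 7.78, 7.79, 7.62 and 7.71 with EPO and of 6.61, 6.43, 6.24 and 5.76 with CTLA4-Ig. The values were 7.08, 6.95, 6.71 and 6.50 after BALB/c cells alone and 8.19, 7.34, 7.13 and 7.58 in naive mice. Mice with EPO and mice given BALB/c cells without EPO did not overlap, and in this gene the naive mice also stood wholly above the mice given BALB/c cells alone. The same naive mouse, replicate 1, was the highest of its group in all 3 genes. This mouse stood apart over the whole table, with 59.8% of its counts in its 10 most abundant genes against 42.1% to 46.2% in the other naive mice, and it sets many of the naive ranges given here.

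**Figure D1:**
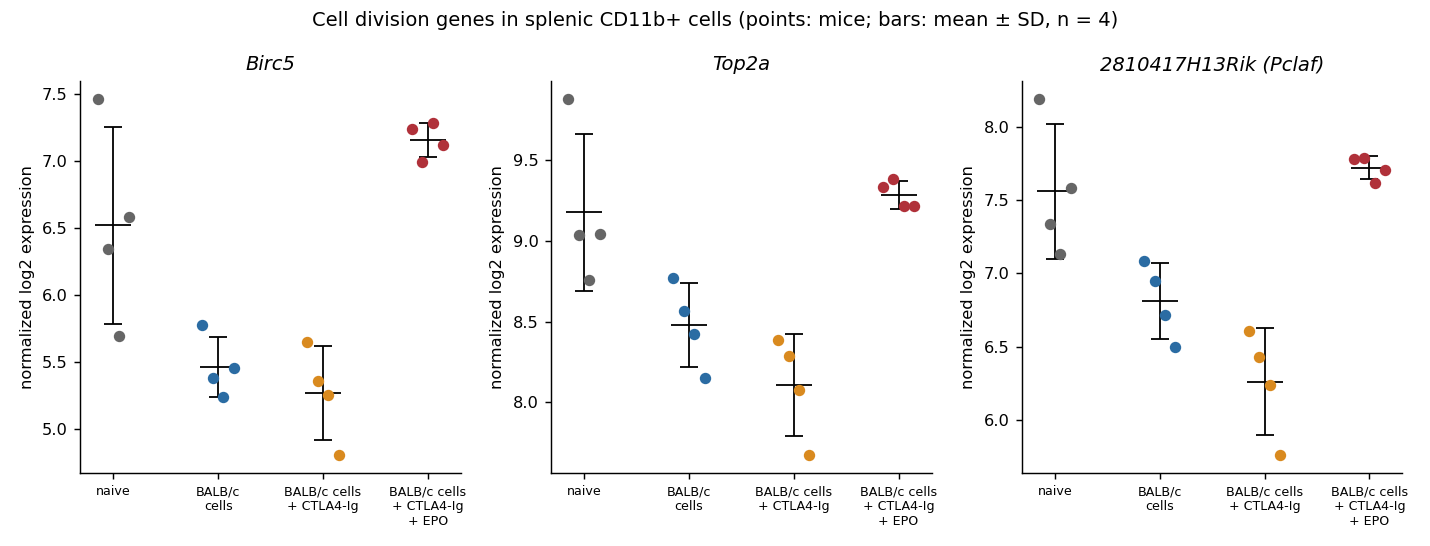
Normalized log2 expression of *Birc5*, *Top2a* and *2810417H13Rik* in the 16 mice (points), with the mean and SD of each group of 4 (bars). The 4 mice with EPO sit above all 8 mice given BALB/c cells without EPO, and the naive mice spread widely.

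The counts behind these values were moderate. The lowest count of the 3 genes was 31, for *Birc5* in naive replicate 3, and the highest was 1058, for *Top2a* in a mouse with EPO. *Birc5* had 208, 167, 277 and 217 recovered counts in the mice with EPO and 72, 52, 65 and 42 in the CTLA4-Ig mice. Each of the 3 genes had a mean above the lowest 25% of genes, so all 3 stayed in the table when those were filtered out. Scaled to each mouse's own total (CPM), *Birc5* lay between 234 and 335 with EPO and between 55.1 and 114 in the other 12 mice. *Top2a* lay between 1223 and 1357 with EPO and between 403 and 822 in the other mice. On this scale *2810417H13Rik* lay between 406 and 464 with EPO and between 107 and 255 elsewhere, so that no mouse of the other 3 groups, naive mice included, reached the lowest mouse with EPO in any of the 3 genes. By totals 46.3% of all genes were called higher with EPO over naive mice. How many of all genes had no overlap on this scale was not counted, so the separation cannot be read as particular to the 3 genes. Totals also depend on the most abundant genes. Genes of mature neutrophils summed to 274486.5 to 478505.7 CPM in naive mice and to 79516.6 to 150971.0 CPM with EPO.

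With EPO added to CTLA4-Ig, all 3 genes rose. *Birc5* differed by 1.88 on the log2 scale (3.69-fold, standard error 0.28, limma adjusted *P* value 5.12e-05), *2810417H13Rik* by 1.47 (2.76-fold, standard error 0.22, adjusted *P* value 4.91e-05) and *Top2a* by 1.18 (2.26-fold, standard error 0.22, adjusted *P* value 0.000338), each higher in 4 of 4 mice. Of all 734 genes, 51.1% were called at an adjusted *P* value below 0.05 and 22.8% were called higher, and 21.3% had no overlap between the 4 mice with EPO and the 4 CTLA4-Ig mice below them, as had the 3 genes here. The median log2 difference over all genes was -0.07. The differences from mice given BALB/c cells alone, the other group without EPO, were 1.69 for *Birc5*, 0.80 for *Top2a* and 0.91 for *2810417H13Rik* (standard errors 0.28, 0.22 and 0.22, limma adjusted *P* values 0.000154, 0.00605 and 0.0028). In that comparison, 50.5% of genes were called, 22.9% were higher and 22.2% did not overlap with the mice with EPO on top. These comparisons share the mice with EPO. Centring each mouse on its median moved the division of calls with EPO from 167 higher and 208 lower genes to 126 and 276, scaling by totals moved it to 184 and 146, and the 3 genes were called higher under both. In selected cells measured in bulk, a greater number of dividing cells and a greater amount of mRNA per cell cannot be told apart, nor can their opposites.

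CTLA4-Ig did not move the 3 genes past the threshold. The differences from BALB/c cells alone were -0.19 for *Birc5* (95% interval -0.80 to 0.41), -0.37 for *Top2a* (-0.84 to 0.09) and -0.55 for *2810417H13Rik* (-1.02 to -0.08), with limma adjusted *P* values of 0.91, 0.691 and 0.523. The interval of *2810417H13Rik* lies below 0, but its unadjusted *P* value of 0.024 did not hold over all genes, of which limma called 0 (0.0%) after adjustment and 70 at an unadjusted *P* value below 0.05. By the methods' t-test, named there for 2 groups in general and not for this panel, these counts were 0 and 76. The values of the groups overlapped in each of the 3 genes.

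BALB/c cells alone were compared with naive mice to see the change that foreign cells brought. On the authors' scale all 3 genes were lower after BALB/c cells, *Birc5* by -1.05 on the log2 scale (standard error 0.28), *2810417H13Rik* by -0.75 (0.22) and *Top2a* by -0.70 (0.22), with limma adjusted *P* values of 0.00427, 0.00721 and 0.0104. This share of 3 in 3 stood beside 70.3% of all genes called and 58.4% called lower. Groups that did not overlap, with the BALB/c mice below, were found for 1 of the 3 genes and for 51.1% of all genes. The naive mice carry a scaling factor of 1.27 to 1.85 against 0.56 to 0.79 in the other mice, and the median log2 difference over all genes was -0.65. After each mouse was centred on its median that shift was 0.08, and the 3 differences were -0.32, -0.02 and 0.03, none past the threshold. With counts scaled by totals the shift was 0.42, the differences were 0.03, 0.33 and 0.39 for *Birc5*, *2810417H13Rik* and *Top2a*, and *Top2a* was called higher (adjusted *P* value 0.047), as were 45.4% of all genes. The division of calls over all genes was 87 higher and 429 lower on the authors' scale, 242 and 196 after centring and 333 and 132 by totals. The direction of the 3 genes after BALB/c cells therefore depended on the scaling. Of the 3 genes only *2810417H13Rik* kept its call in the methods' t-test after adjustment, which is not the test named for this panel. CTLA4-Ig mice against the same naive mice gave -1.25, -1.07 and -1.30 for *Birc5*, *Top2a* and *2810417H13Rik* (limma adjusted *P* values 0.00127, 0.000507 and 9.64e-05), beside 68.9% of genes called and 58.3% called lower. The median over all genes was -0.63. By totals, the differences were -0.15, 0.03 and -0.21 at an all-gene median of 0.44, and were not called. After centring only *2810417H13Rik* stayed called lower (-0.58, adjusted *P* value 0.0247), at an all-gene median of 0.09.

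Between CTLA4-Ig/EPO mice and naive mice, none of the 3 genes passed the threshold on the authors' scale. The differences were 0.64 for *Birc5* (95% interval 0.03 to 1.24, limma adjusted *P* value 0.0568), 0.11 for *Top2a* (-0.36 to 0.57, 0.664) and 0.16 for *2810417H13Rik* (-0.31 to 0.63, 0.519). At the same time 70.8% of all genes were called, 9.13% higher and the others lower, with a median log2 difference of -0.74. Set against that shift the 3 genes stood high, and under each of the other scalings all 3 were called higher with EPO. Centring on medians gave 1.16, 0.63 and 0.68 for *Birc5*, *Top2a* and *2810417H13Rik*, at an all-gene median of -0.22. Totals gave 1.82, 1.30 and 1.35, at an all-gene median of 0.44, where 46.3% of all genes were called higher. The division of calls over all genes was 67 higher and 453 lower on the authors' scale, 168 and 249 after centring and 340 and 90 by totals. *Birc5* was also called without naive replicate 1 (0.95) and in a fit that paired mice by replicate number as a block (adjusted *P* value 0.03). The data did not pair CTLA4-Ig/EPO with naive mice, since deviations of mice of equal number had correlations of -0.129 to -0.016 over genes.

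**Figure D2:**
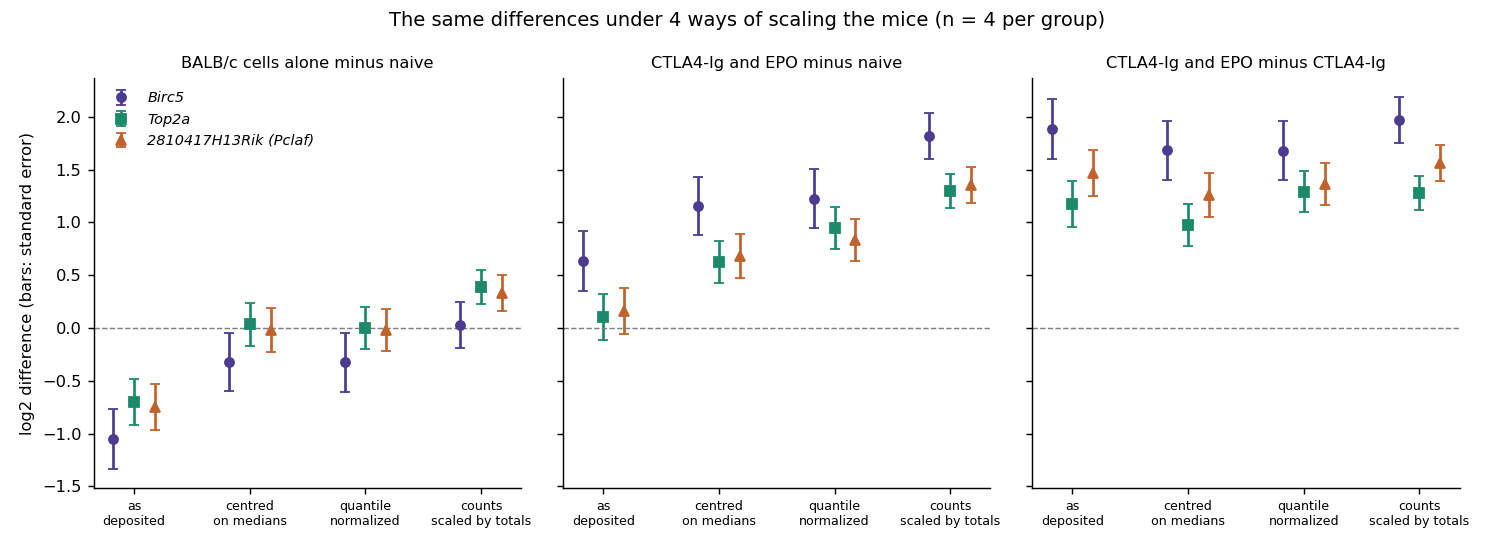
Log2 differences of the 3 genes (symbols, with standard errors from limma) for 3 comparisons of 4 mice each, with the values as deposited, centred on each mouse's median, quantile normalized or as counts scaled by totals. The rise with EPO over CTLA4-Ig is above 0.97 throughout, whereas the differences from naive mice move with the scaling.

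The order of the mean levels was the same in the 3 genes on the authors' scale, CTLA4-Ig lowest, then BALB/c cells alone, then naive, then CTLA4-Ig/EPO. The neighbours CTLA4-Ig and BALB/c cells alone did not differ past the threshold, nor did naive mice and CTLA4-Ig/EPO mice, and the place of the naive mice between the other groups moved with the scaling. By totals the mice with EPO stayed highest and the other 3 groups overlapped in each gene. All 3 genes differed among the 4 groups in limma's moderated F-test (adjusted *P* values 5.22e-05 for *Birc5*, 0.000347 for *Top2a* and 5.86e-05 for *2810417H13Rik*), as did 85.3% of all genes.

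A difference of 2 genes within a mouse does not depend on the scaling factor of that mouse. *Birc5* minus *Top2a* on the log2 scale was -2.10, -2.39, -1.93 and -2.09 in the 4 mice with EPO and -2.74, -2.93, -2.82 and -2.87 in the 4 CTLA4-Ig mice. The groups did not overlap, so that *Birc5* rose more than *Top2a* without pairing, by 0.71 on the log2 scale (1.63-fold). *Birc5* also rose more than *2810417H13Rik*, by 0.42, with differences between -0.80 and -0.34 with EPO and between -1.07 and -0.95 with CTLA4-Ig. *Top2a* minus *2810417H13Rik* fell by 0.29, from a mean of 1.85 ± 0.06 with CTLA4-Ig to 1.56 ± 0.04 with EPO (SD, n = 4 each), again without overlap. For each of the 3 pairs, the two-sided exact permutation test over 70 arrangements gave 0.0286, the smallest *P* value that it allows, and 0.0286 after Benjamini-Hochberg adjustment over the 3 pairs. With the mice paired by replicate number as a block, the 3 differences kept their means and had the same sign in 4 of 4 pairs of mice (0.54 to 0.89, 0.27 to 0.64 and -0.41 to -0.23). The paired exact two-sided test gave 0.125 for each, the smallest *P* value that 4 pairs of mice allow, so that it could not reach the threshold whatever the values. With single mice left out, *Birc5* minus *2810417H13Rik* rose by 0.34 to 0.49, and it was no longer called without any of the 4 CTLA4-Ig mice in turn. The groups still did not overlap there. In the other groups *Birc5* minus *Top2a* was -3.01 ± 0.23 after BALB/c cells alone and -2.66 ± 0.30 in naive mice (SD, n = 4 each). *Birc5* minus *2810417H13Rik* was -1.35 ± 0.23 and -1.04 ± 0.29 there, and *Top2a* minus *2810417H13Rik* was 1.67 ± 0.04 and 1.61 ± 0.11, closer to the value with EPO than to that with CTLA4-Ig. These were not tested.

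**Figure D3:**
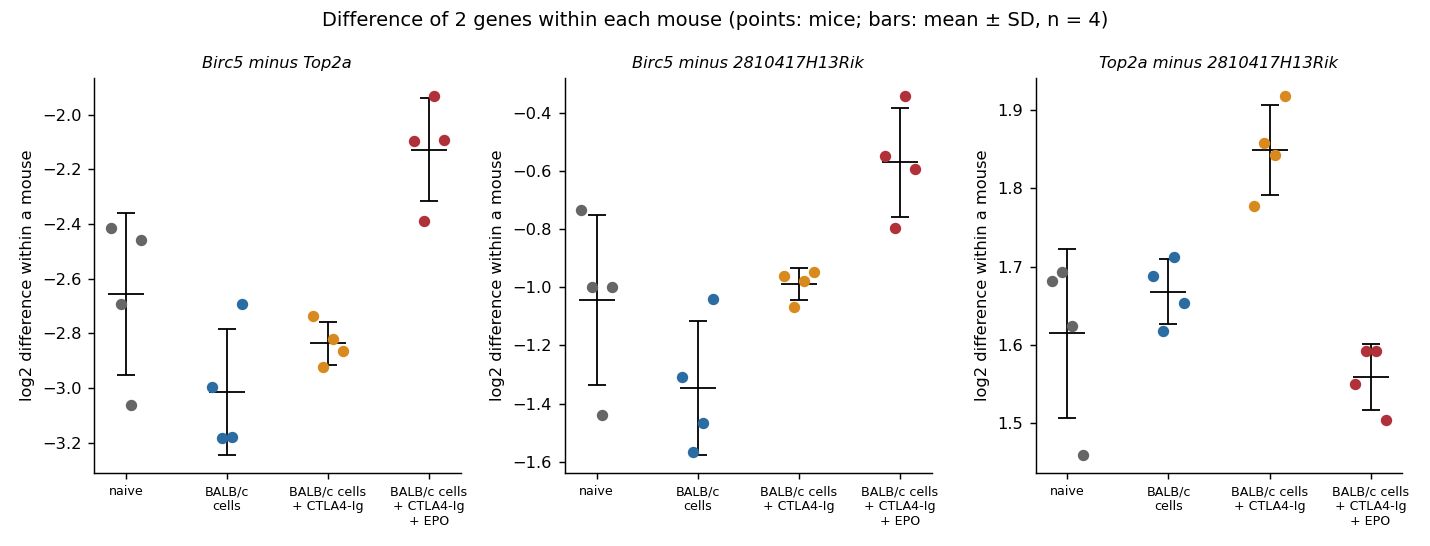
Differences in normalized log2 expression between 2 of the 3 genes within each of the 16 mice (points), with the mean and SD of each group of 4 (bars). *Birc5* stands higher relative to *Top2a* and to *2810417H13Rik* in the 4 mice with EPO than in the 4 CTLA4-Ig mice, without overlap.

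Other genes of the division cycle were looked up from lists of 38 genes of DNA replication and S phase, of which 1 is in the table, and of 62 genes of mitosis and cytokinesis, of which 5 are. With EPO over CTLA4-Ig, 1 of 1 and 4 of 5 were called higher and 0 were called lower, beside 22.8% of all genes called higher, and the median log2 difference of the mitosis genes was 1.16. The replication gene was *Mcm5*, a subunit of the replicative helicase (1.22, standard error 0.15). In mitosis, *Kif20a*, a kinesin of the midzone (1.58, standard error 0.22), *Ccnb2*, a B-type cyclin (1.54, 0.22), and *Cdc20*, an activator of the anaphase-promoting complex (1.16, 0.17), rose with no overlap between the groups. *Ttk*, the kinase of the spindle checkpoint, rose less (0.67, standard error 0.20, adjusted *P* value 0.0114), and it was no longer called after centring on medians or quantile normalization. *Ndc80*, a kinetochore protein, differed by 0.32 (standard error 0.20, adjusted *P* value 0.204) and overlapped between the groups, and its recovered counts reached down to 17 in naive mice. In the comparison of CTLA4-Ig/EPO mice with naive mice on the authors' scale, *Mcm5* (0.62) and *Kif20a* (0.66) were called higher and 0 of the 6 lower, beside 9.13% of all genes called higher. After centring 5 of 6 were called higher, as were 168 of all 734 genes, and by totals 6 of 6, beside 46.3% of all genes. CTLA4-Ig against BALB/c cells alone called 0 of the 6. BALB/c cells alone against naive mice called *Mcm5*, *Ccnb2* and *Cdc20* lower on the authors' scale, 3 of 6 beside 58.4% of all genes, but by totals all 6 were called higher, beside 45.4% of all genes.

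**Figure D4:**
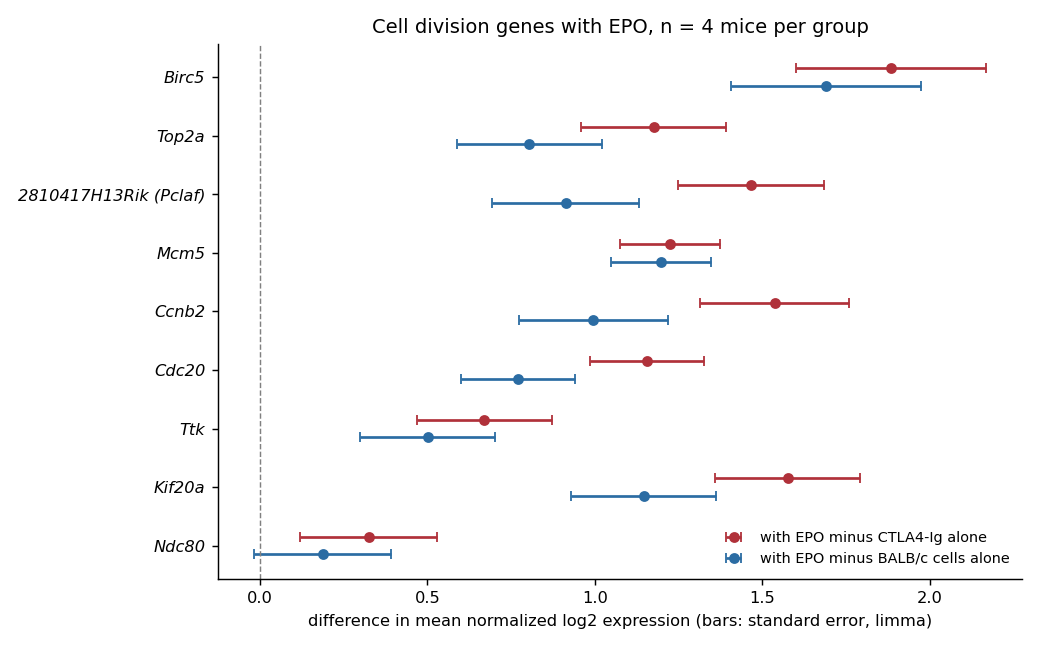
Differences in mean normalized log2 expression of the 3 genes and of 6 further replication and mitosis genes between mice with EPO and the 2 groups given BALB/c cells without it (points, with standard errors from limma, 4 mice in each group). *Birc5* lies at 1.88 and *Ndc80* at 0.32 against CTLA4-Ig.

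*Myc*, a transcription factor that drives growth and the only one of 22 listed cyclins, kinases and regulators in the table, was lower with EPO (log2 difference -0.92, standard error 0.11) and lowest in naive mice (8.80 ± 0.21 in naive mice, 10.08 ± 0.11 after BALB/c cells alone, 10.13 ± 0.14 with CTLA4-Ig and 9.22 ± 0.03 with EPO, SD, n = 4 each). Among all 734 genes, 208 were called lower with EPO over CTLA4-Ig. Of 18 cycle inhibitors and p53 targets, 4 are in the table, 2 of which were lower with EPO and 0 higher. These were *Gadd45b*, a stress sensor (-0.96), and *Btg2*, an antiproliferative cofactor (-0.80), while *Cdkn1a*, which encodes the kinase inhibitor p21 (-0.11), and *Sesn1* (-0.23) did not pass and were called lower after centring on medians. *Birc5* belongs by sequence to the inhibitors of apoptosis, and of 31 genes listed for the control of apoptosis, most of them of that family or the BCL2 family, 5 others are in the table. Of these, 4 were lower with EPO and 0 higher, with a median of -0.75, beside 208 of all 734 genes called lower. *Birc2* (-0.75) and *Birc3* (-0.78), its family members that bind TRAF proteins, fell where *Birc5* rose, as did *Bcl2* (-1.08) and *Bcl10* (-0.44), an adaptor of NF-kB signalling that belongs to neither family. *Bid* (-0.13) did not pass on the authors' scale and was called lower after centring.

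Over all 734 genes, 167 were called higher and 208 lower with EPO over CTLA4-Ig. Of 20 myeloid growth factors and receptors, 12 are in the table, and 3 were higher and 3 lower with EPO, at a median of 0.10. Those higher were *Kitl*, which encodes stem cell factor (2.64), *Csf1r*, the receptor of macrophages and their precursors (1.16), and *Il3ra* (0.63). Those lower were *Flt3* (-0.85), *Il5ra* (-0.78) and *Kit*, the receptor of stem cell factor (-0.47). *Il3ra* was no longer called after centring or quantile normalization, and *Kit* was no longer called by totals. *Kit*, *Csf1r*, *Flt3* and *Il5ra* are also on marker lists described below.

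Over the 16 mice, the genes most like the 3 in their log2 values were *Ccnb2* (mean Pearson's r 0.942), *Kif20a* (0.939), *Ctsg*, a protease of neutrophil granules (0.936), *F11r*, an adhesion molecule of cell junctions (0.933), and *Prg2*, the major basic protein of eosinophils (0.931). *Ctsg* and *Prg2* are also on the marker lists described below. Among the 3 genes themselves r was 0.991 for *Top2a* with *2810417H13Rik*, 0.940 for *Birc5* with *Top2a* and 0.938 for *Birc5* with *2810417H13Rik*. These points share the 4 group means and the scaling factor of each mouse. Over the deviations of the 16 mice from their group means, the highest were *Kif20a* (0.862), *Txn1*, a thioredoxin (0.858), *Ctsg* (0.850), *Tuba4a*, an alpha tubulin (0.844), and *Mapk13*, a p38 kinase (0.831). Naive replicate 1 weighed on that list, since without it only *Txn1* (0.823) stayed among the 5, an alternative chosen after the data were seen. By totals, *Kif20a* and *Ccnb2* stayed among the 5 over all mice and *Kif20a* and *Ctsg* over deviations.

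Marker genes of cell types that the selected cells could hold moved beside the 3 genes, and their part in the result was not tested. The list counts below stand beside 167 higher and 208 lower of all 734 genes with EPO over CTLA4-Ig. The most abundant gene of each list was taken over all 16 mice and was not the same in each group for every list. Of 16 granulocyte progenitor genes 8 are in the table, and with EPO over CTLA4-Ig 6 were higher and 1 lower (median 2.24). *Ctsg* rose by 3.12 on the log2 scale, *Mpo* by 2.88, *Fcnb* by 2.56, *Elane* by 2.54, *Camp*, the most abundant of the list, by 1.94 and *Chil3* by 1.84, whereas *Kit* was lower and *Cd34* (0.39) did not pass. The summed normalized level of the list was 8372, 18725, 11209 and 14342 in the mice with EPO and 4275, 3310, 2646 and 2877 with CTLA4-Ig. It was 5852, 2512, 3836 and 2469 after BALB/c cells alone and 69216, 27899, 21499 and 35042 in naive mice, again highest in naive replicate 1. On the authors' scale the naive mice thus had the highest sums of this list without overlap and overlapped with the mice with EPO in the 3 division genes. By totals it was the reverse, with overlapping sums (22907 to 44933 CPM in naive mice, 17657 to 34352 with EPO) and no overlap in the 3 genes. *Top2a* minus *Mpo* on the log2 scale was -1.49 ± 0.59 in naive mice, 0.68 ± 0.47 after BALB/c cells alone, 0.54 ± 0.14 with CTLA4-Ig and -1.17 ± 0.35 with EPO (SD, n = 4 each), and these differences were not tested.

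Of 24 erythroid genes 1 is in the table, *Gata1*, a factor that red cell, megakaryocyte, mast cell and eosinophil precursors share. Its normalized level lay between 49.9 and 68.5 with EPO and was at most 17.4 with CTLA4-Ig. It lay between 9.40 and 15.3 after BALB/c cells alone and between 50.6 and 119 in naive mice. *Gata1* thus rose by 2.23 (log2) over CTLA4-Ig without overlap. It overlapped with naive mice on the authors' scale but not by totals (101 to 141 CPM with EPO, 47.4 to 77.0 CPM in naive mice). Globin genes and the defining *Klf1* and *Tfrc* were not analysed here. Of 10 megakaryocyte and platelet genes 2 are in the table, of which *Pf4* was higher with EPO (1.29) and *Selp* (0.50), the more abundant over all mice, did not pass. Their sum lay between 63.9 and 109 with EPO, 43.6 and 51.4 with CTLA4-Ig, 30.7 and 46.7 after BALB/c cells alone and 144 and 182 in naive mice, and by totals the naive mice (118 to 174 CPM) overlapped with those with EPO (138 to 211 CPM).

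Eosinophil genes also rose. Of 11 listed 8 are in the table, 6 higher with EPO and 1 lower (median 2.05), led by *Prg2* (3.92), the most abundant, with *Ear6* at 3.37, *Epx* at 3.00, *Ccr3* at 2.72, *Alox15* at 1.38 and *Prg3* at 1.34. *Il5ra*, named above, was the lower one, and *Siglecf* (0.51) did not pass on the authors' scale but was called higher by totals. The summed level was 2473, 3511, 3024 and 2996 with EPO, 437, 396, 389 and 336 with CTLA4-Ig, 634, 455, 356 and 415 after BALB/c cells alone and 2666, 1318, 1301 and 2896 in naive mice. On this scale the mice with EPO and the naive mice overlapped and both stood above the others, whereas by totals the mice with EPO (5215 to 6520 CPM) stood above the naive mice (1234 to 2801 CPM). Of 8 basophil and mast cell genes 5 are in the table, and 3 were higher with EPO. *Hdc* was the most abundant over all mice through the naive mice, and *Cpa3* had the higher mean with EPO and with CTLA4-Ig. Their sum lay between 346 and 412 with EPO, 205 and 349 with CTLA4-Ig, 212 and 349 after BALB/c cells alone and 2116 and 3024 in naive mice.

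Macrophage genes rose with EPO in 12 of the 13 in the table (of 18 listed, median 1.72), from 0.74 for *Timd4* to 3.65 for *Lpl*. *Vcam1* was the most abundant, and *Marco* (0.02) did not pass the threshold. The summed level was 30032, 28937, 39598 and 33121 with EPO and 9523, 9964, 10527 and 9361 with CTLA4-Ig. It lay between 10183 and 12158 after BALB/c cells alone and between 10257 and 13023 in naive mice. The naive mice thus overlapped with the mice given BALB/c cells alone in this list, and by totals they were below all other groups (7897 to 12598 CPM). Of 11 classical monocyte genes 7 are in the table, 5 higher and 1 lower, with sums (most abundant gene *Chil3*) between 10183 and 15986 with EPO, 6457 and 7341 with CTLA4-Ig, 5773 and 7166 after BALB/c cells alone and 20679 and 37574 in naive mice. *Chil3* is also on the granulocyte progenitor list. It made up 33.4% to 50.2% of the monocyte sums with EPO and 16.1% to 25.7% with CTLA4-Ig. By totals the monocyte sums of naive mice (22033 to 25956 CPM) overlapped with those with EPO (21478 to 29326 CPM), and 4 genes stayed higher over CTLA4-Ig after centring. Of 12 mature neutrophil genes 11 are in the table, 3 higher and 2 lower with EPO. *S100a9* was the most abundant, and their sum lay between 37701 and 82295 with EPO, 17172 and 26590 with CTLA4-Ig, 15242 and 36645 after BALB/c cells alone and 257623 and 737106 in naive mice, of which 340442 was the highest without naive replicate 1.

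**Figure D5:**
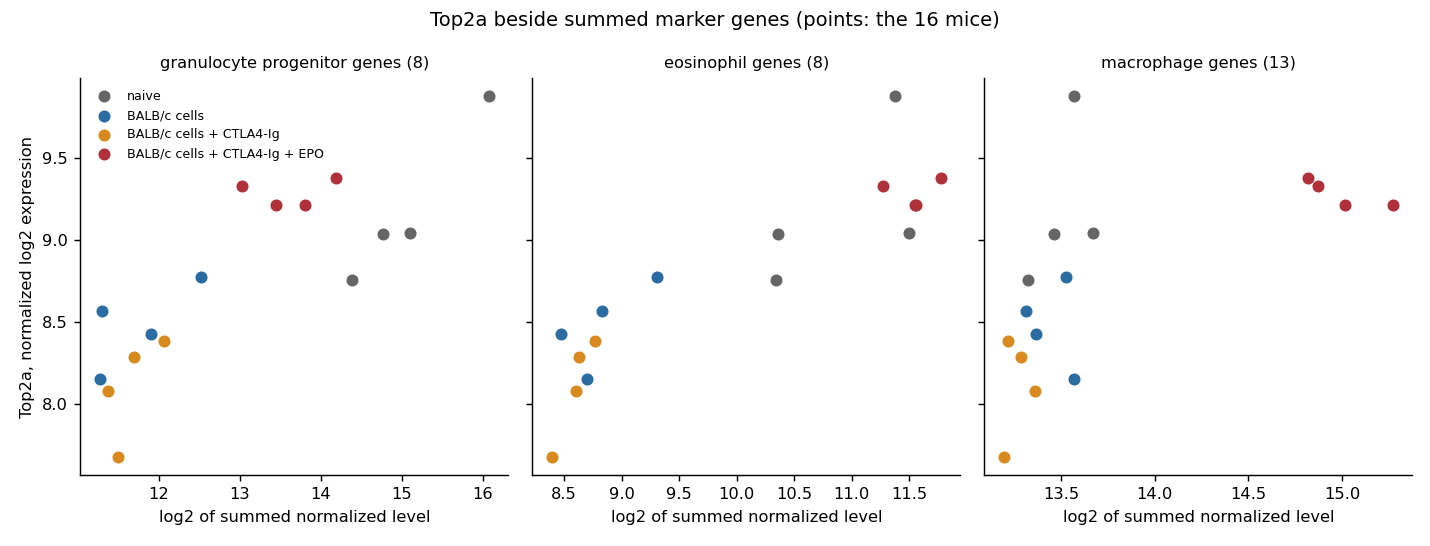
Normalized log2 expression of *Top2a* against the log2 of the summed normalized level of 8 granulocyte progenitor genes, 8 eosinophil genes and 13 macrophage genes in the 16 mice (points), on the authors' scale. Mice with EPO and naive mice both lie high for the progenitor and eosinophil genes. Only the mice with EPO lie high for the macrophage genes. For *Top2a* the mice with EPO and most naive mice lie high, but naive replicate 3 (8.75) lies just below the highest mouse given BALB/c cells alone (8.77). By totals the naive mice no longer lie high for *Top2a*.

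Of the 19 listed lymphoid and dendritic cell genes looked up here, 1 was called higher with EPO over CTLA4-Ig, the dendritic cell gene *Xcr1* (0.69), which was not called after centring or quantile normalization. Of 18 T cell genes 5 are in the table and all 5 were lower with EPO (median -1.88), with sums between 369 and 561 with EPO, 1269 and 1374 with CTLA4-Ig, 1304 and 1647 after BALB/c cells alone and 497 and 721 in naive mice. *Cd28* was the most abundant of them over all mice, but *Cd247* had the higher mean with EPO and in naive mice. The defining *Cd3e*, *Cd4* and *Cd8a* were not analysed here. Of 16 B cell and plasma cell genes 3 are in the table and all 3 were lower, with sums (most abundant gene *Ms4a1*) between 1339 and 1947 with EPO, 2527 and 3016 with CTLA4-Ig, 2667 and 3137 after BALB/c cells alone and 1289 and 1419 in naive mice. Of 10 NK and cytotoxic cell genes 3 are in the table and all 3 were lower, of which 1 stayed lower by totals, with sums (most abundant gene *Gzma*) between 4929 and 6576 with EPO, 8291 and 12240 with CTLA4-Ig, 4303 and 7749 after BALB/c cells alone and 7252 and 10544 in naive mice. Of 12 dendritic cell genes 8 are in the table, 4 lower and 1 higher with EPO, with sums (most abundant gene *Ccr7*) between 3291 and 4080 with EPO, 8091 and 9140 with CTLA4-Ig, 8670 and 9382 after BALB/c cells alone and 2952 and 5217 in naive mice. By totals the naive mice had lower sums than the mice with EPO without overlap for the T cell list (323 to 768 CPM against 795 to 1183 CPM), the B cell list (837 to 1512 CPM against 2886 to 4106 CPM) and the dendritic cell list (1916 to 5558 CPM against 7095 to 8604 CPM). The NK list overlapped (5218 to 10955 CPM against 10494 to 13869 CPM). Without naive replicate 1 the lowest naive sums by totals were 560 CPM for T cells, 1260 CPM for B cells, 3926 CPM for dendritic cells and 7015 CPM for NK cells. The lowest recovered count in the table is 1, and whether it stands for 0 is not stated.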

How the data were processed

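The table deposited by the authors holds normalized nCounter values on the log2 scale, in 1 column for each mouse. Each value is the log2 of a whole count times a single factor per mouse (whole to within 0.001 for 100% of values), so counts were recovered. What the factor was computed from is not given in the sources used here. Groups came from sample titles. All 734 genes and 16 mice entered, unfiltered, a limma fit with a mean for each group (limma 3.58.1 under R 4.3.3), with Benjamini-Hochberg adjustment over all genes at 0.05, after the fit was tested on simulated data. Tests were two-sided. Mice of a group differed by more than sampling noise (chi-square per degree of freedom at least 5.10 in 24 pairs, and 71.8 to 127 between naive replicate 1 and the other naive mice against 8.40 to 19.9 among those). The members and the lists were chosen with earlier results of these data known, and a few genes not reported here were later taken out of the lists. Named genes were the 3 members, genes of fixed cell cycle, apoptosis and growth factor lists (called with EPO, or in lists with at most 6 in the table), the 5 genes with the highest mean Pearson's r over mice and over deviations from group means, the most abundant gene of each marker list, and the called genes of the progenitor, erythroid, megakaryocyte and eosinophil lists. Beyond this rule, *Timd4* and *Lpl* mark the ends of the macrophage range, and *Marco*, *Siglecf* and *Cd34* were named as not called, and *Xcr1*, *Cpa3* and *Cd247* to qualify their lists. With and without EPO, CTLA4-Ig mice of equal replicate number had correlated deviations over genes (0.143 to 0.183 in 4 of 4 pairs). Mice of unequal number in these groups had correlations from -0.287 to 0.192. Each pair of equal number was over 0.1. On the data and not the labels, the numbers were therefore taken as a possible pairing of these mice. Since the highest correlation at unequal number (0.192) exceeded every one at equal number, such a pairing was not established. The block served as an alternative. Alternatives were centring on medians, quantile normalization, counts scaled by totals as log2(CPM + 1), limma-voom, trended and robust moderation, array weights, 2 groups only, removal of the lowest 25% of genes, the replicate number as a block, the methods' t-test and leaving out each mouse. The other likeness settings and the block for the differences between 2 genes were added after seeing the data. Symbols were matched to RefSeq's gene table for names, 724 of 734 as current symbols and 9 as synonyms. Python 3.11.15, numpy 2.4.6, pandas 2.3.3 and matplotlib 3.10.9 were used for sums, sequences and plots.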

Additional observations from a re-analysis of the deposited data

Results flagged for a closer look

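In 48 groups of 4 values (the 9 division genes and the 3 differences between the main genes, in each treatment group), 1 had a mouse far from the others, where chance gives about 1 in 20. For *Mcm5* after BALB/c cells alone the highest mouse was at 7.50 (log2) and the next at 7.29. The gene did not lose its call with EPO when any single mouse was left out.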

How the results depend on the processing

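The rise of *Birc5*, *Top2a* and *2810417H13Rik* with EPO over CTLA4-Ig kept its direction and its call in 26 of 26 alternatives each (1.68 to 2.01, 0.97 to 1.29 and 1.26 to 1.58 on the log2 scale), as did their rise over BALB/c cells alone, and CTLA4-Ig against BALB/c cells alone stayed below the threshold in 26 of 26. For differences from naive mice the cause of the changes was not tested. BALB/c cells alone minus naive for *Birc5*, *Top2a* and *2810417H13Rik* was -0.32, 0.0341 and -0.0186 after centring, -0.33, 0.0019 and -0.0170 after quantile normalization, 0.0289, 0.39 and 0.33 by totals and -1e-04, 0.38 and 0.32 with limma-voom. In the methods' t-test, which is named there for 2 groups in general while limma is named for this panel, *Birc5* (-1.05) and *Top2a* (-0.70) missed the threshold. CTLA4-Ig minus naive was -0.53 and -0.35 for *Birc5* and *Top2a* after centring and -0.45 and -0.34 after quantile normalization, neither called, while *2810417H13Rik* stayed called lower in both (-0.58 and -0.53). In the order *Birc5*, *Top2a*, *2810417H13Rik* it was -0.15, 0.0250 and -0.21 by totals and -0.18, 0.0193 and -0.22 with limma-voom. CTLA4-Ig/EPO minus naive was 1.16, 0.63 and 0.68 after centring, 1.22, 0.95 and 0.83 after quantile normalization, 1.82, 1.30 and 1.35 by totals and 1.80, 1.30 and 1.35 with limma-voom. *Birc5* alone was also called with array weights (0.68), and at 0.64 with trended and robust moderation and with low genes removed.

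With the replicate number as a block (the paired fit), *Birc5* in CTLA4-Ig/EPO minus naive was called at the same difference of 0.64, 400 genes were called with EPO in place of 375, and no other call of the 3 genes changed. This call of *Birc5* rests on a pairing with naive mice that the data did not show (correlations of -0.129 to -0.016 at equal number). The unequal rises (0.71, 0.42 and -0.29 in the paired fit) had the same sign in 4 of 4 pairs of mice. Since 4 pairs allow no exact two-sided *P* value below 0.125, the paired exact test could give no call for them. No other paired test was made of them.

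With single mice left out, CTLA4-Ig/EPO minus naive lay between 0.36 and 0.95 for *Birc5*, called only without naive replicate 1, and between -0.0335 and 0.34 for *Top2a*, below 0 only without naive replicate 3. For *2810417H13Rik* it lay between 0.019 and 0.37 and was never called. The number of genes called for CTLA4-Ig over BALB/c cells alone lay between 0 and 1. The difference there lay between -0.32 and -0.0413 for *Birc5*, -0.48 and -0.23 for *Top2a* and -0.67 and -0.39 for *2810417H13Rik*, never called. The unequal rise of *Birc5* and *2810417H13Rik* lay between 0.34 and 0.49 and was no longer past the threshold without any of the 4 CTLA4-Ig mice in turn (exact permutation test, 0.0571 after adjustment). The groups still did not overlap, but with groups of unequal size another arrangement of the mice gave a difference as large. The unequal rises of the other pairs of genes kept their calls there. Counts as low as 31 limit the precision of *Birc5* in naive mice.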
